A study of Mus musculus with 12 samples.

Results

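Fibro-adipogenic progenitors (FAPs) are the mesenchymal cells of skeletal muscle that can turn into fibroblasts or adipocytes. Histone H3 acetylated at lysines 9 and 14 (H3K9/14ac) was mapped in them by chromatin immunoprecipitation and sequencing, and a pair of these libraries was compared here: FAPs of young mice given trichostatin A (TSA) and FAPs of old mice given vehicle. All mice were C57Bl6 mdx, a strain that lacks dystrophin and models Duchenne muscular dystrophy, so no library is from healthy muscle. The young TSA mice were 1.5 months old and received TSA at 0.6 mg/kg/day by daily intraperitoneal injection for 15 days. The old vehicle mice were 12 months old and received the saline that carried the drug, for the same 15 days. The cells were sorted by FACS; the gate and the number of animals behind a library are not given in the sources used here. These are 2 of the 12 samples of the series, 1 library for each condition and mark. The other H3K9/14ac libraries are young vehicle (1.5 months) and old TSA (12 months, the same dose and days). The pair differs in both age and treatment, so an effect of age and an effect of TSA cannot be told apart in it, and with 1 library a side no difference below has a replicate check and none was tested.

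Acetylated H3 neutralises the charge of the histone tail and marks the start sites and enhancers of genes that are active or ready to be active. Histone deacetylases remove the mark and TSA blocks them. In dystrophic muscle, FAPs support the regeneration of fibres at early stages and give rise to fat and scar tissue at late ones, and the question the pair addresses is how far the acetylation of treated young FAPs and untreated old FAPs is alike.

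The deposited peak lists break off part-way through the genome, and both hold chromosomes 1 to 3 and chromosome 4 up to position 148075753. That stretch held 6250 young TSA peaks (23.9% of the peaks the header counts) and 6082 old vehicle peaks (23.8%). Each peak carries its Total Tags, the count of sequenced fragments inside its own borders, which ran from 20 to 1646 in the young TSA list and from 27 to 1349 in the old vehicle list. The young TSA peaks held 1189219 tags over 5.21 Mb and the old vehicle peaks 1136407 tags over 4.51 Mb. Where all 4 H3K9/14ac lists overlap (chromosome 1 and chromosome 2 up to 167064301), the pair had 631446 and 608674 tags in peaks, against 452476 for young vehicle and 426273 for old TSA. The pair therefore holds the longer lists of the 4, with 3336 and 3235 peaks there against 2711 and 2474, and this difference in list length goes with every statement below that sets the pair against the other libraries.

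The labelled cell type was checked in the stretch. Of 9 FAP marker genes there, all had tags in both lists, including Cd34 (437 tags in young TSA, 309 in old vehicle), Prrx1 (534 and 622) and Twist2 (349 and 369). No peak lay within 10000 bp of Pax7 or Pax3, which define muscle stem cells, of Ptprc or C1qa, which define leukocytes and macrophages, or of Ttn and Neb, which encode giant proteins of the fibre. The endothelial transcription factor genes Sox17 (824 and 553) and Sox18 (896 and 744) and the endothelial co-receptor gene Eng (1248 and 819) did carry tags in both. Counted over whole lists, 17 of 31 macrophage genes, 12 of 24 lymphocyte genes, 10 of 22 fibre genes and 3 of 10 muscle stem cell genes had no peak in either. The same held for 2 of 14 endothelial genes. The remaining members of each had a peak in either list or in both, so the check does not exclude cells of these types. The summed tags of the macrophage genes were 4361 in young TSA and 4710 in old vehicle, and those of the fibre genes 3250 and 3254. The 9 FAP genes held 3820 and 4836, and the 14 endothelial genes 8653 and 7210.

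Promoter sequences of 5 genes show the kinds of start site that the comparison turns on. They come from RefSeq (GRCm38.p6), run 5′ to 3′ along the gene from 250 bases before its start site to 50 after it, and have every CG dinucleotide in capitals, since CpG-rich start sites are the ones that usually carry this mark. Jun (chr4:95052173-95052472, minus strand) and Jag1 (chr2:137116471-137116770, minus strand) lie under some of the strongest peaks of both lists, Tal1 (chr4:115057561-115057860, plus strand) under a peak with more tags in young TSA, Adamtsl2 (chr2:27079129-27079428, plus strand) under a peak that young TSA and old vehicle have and the other libraries lack, and Col3a1 (chr1:45311288-45311587, plus strand) at a gene where both have few tags.
Jun: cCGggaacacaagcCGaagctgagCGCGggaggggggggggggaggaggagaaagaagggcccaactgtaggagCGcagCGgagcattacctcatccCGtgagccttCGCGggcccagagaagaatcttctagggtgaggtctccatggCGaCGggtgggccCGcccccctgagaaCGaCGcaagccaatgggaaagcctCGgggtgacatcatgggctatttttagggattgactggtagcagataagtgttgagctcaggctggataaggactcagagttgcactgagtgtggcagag
Jag1: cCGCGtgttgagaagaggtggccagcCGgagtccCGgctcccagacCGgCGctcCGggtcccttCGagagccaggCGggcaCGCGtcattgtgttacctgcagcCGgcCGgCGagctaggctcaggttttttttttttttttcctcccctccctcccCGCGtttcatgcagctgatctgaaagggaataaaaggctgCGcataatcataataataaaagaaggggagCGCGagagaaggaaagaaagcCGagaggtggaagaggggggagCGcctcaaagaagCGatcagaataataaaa
Tal1: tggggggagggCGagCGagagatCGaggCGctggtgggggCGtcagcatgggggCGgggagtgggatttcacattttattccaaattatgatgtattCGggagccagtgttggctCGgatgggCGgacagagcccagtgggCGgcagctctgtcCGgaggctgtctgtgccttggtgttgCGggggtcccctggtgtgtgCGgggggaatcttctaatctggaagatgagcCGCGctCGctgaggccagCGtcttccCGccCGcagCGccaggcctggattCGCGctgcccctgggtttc
Adamtsl2: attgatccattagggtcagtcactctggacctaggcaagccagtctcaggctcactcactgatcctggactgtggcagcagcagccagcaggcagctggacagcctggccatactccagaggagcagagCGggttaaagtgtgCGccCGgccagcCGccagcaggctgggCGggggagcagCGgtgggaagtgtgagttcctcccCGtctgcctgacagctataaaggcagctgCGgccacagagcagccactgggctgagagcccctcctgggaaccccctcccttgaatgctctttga
Col3a1: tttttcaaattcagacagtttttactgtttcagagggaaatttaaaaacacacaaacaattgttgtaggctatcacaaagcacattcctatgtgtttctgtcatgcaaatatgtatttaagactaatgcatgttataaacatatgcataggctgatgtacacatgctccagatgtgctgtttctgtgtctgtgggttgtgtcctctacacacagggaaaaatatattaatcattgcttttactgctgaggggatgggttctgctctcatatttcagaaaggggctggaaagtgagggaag
The Jag1 and Tal1 windows each hold 22 CG dinucleotides, Jun 15, Adamtsl2 8 and Col3a1 0.

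All promoter windows of the stretch were then grouped by the lists with a peak over them. The examples above do not stand for these groups. The Col3a1 window lay under a peak in young TSA alone (49 tags, 0 in old vehicle), and the others under peaks in both lists. Of 5290 windows, 2567 lay under a peak in both lists, 246 in young TSA alone, 82 in old vehicle alone and 2395 in neither. The median window marked in both had 22 CG dinucleotides and 62.0% G and C, and the median window marked in neither had 4 and 49.0%. Windows marked in young TSA alone were as rich as the shared ones (21.5 CG dinucleotides, 64.0% G and C), whereas those marked in old vehicle alone had 10.5 and 55.0%. The GC box GGGCGG, searched on both strands, was in 68.5% of windows marked in both, 76.0% of those in young TSA alone, 43.9% of those in old vehicle alone and 46.8% of all 5290. The letters TATAAA, on either strand, were in 5.34%, 7.32% and 8.54% of the same classes and in 12.5% of all. The letters CCAAT differed little (36.5%, 37.0% and 35.4%, with 37.1% of all), and the AP-1 letters TGACTCA were in 2.84%, 4.88% and 11%, with 4.74% of all windows. None of these motifs contains another, and a match is a description of letters only.

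Most acetylated sites were common to the pair. Peaks that overlapped by at least 1 bp were merged into 7101 regions, of which 4455 (62.7%) held a peak of both lists. Of the young TSA peaks, 73.8% (95% exact binomial interval 72.7 to 74.9%, for counting error only) overlapped an old vehicle peak, and of the old vehicle peaks 83.4% (82.5 to 84.3%) overlapped a young TSA peak. The shared regions held 92.8% of the young TSA tags and 94.1% of the old vehicle tags. Regions at start sites were shared more fully than regions as a whole. Of them, 2710 were shared, 328 were in young TSA alone and 163 in old vehicle alone. Gene starts, an unlike unit since genes can share a region, were counted too. Of 2572 protein-coding genes with a peak within 1000 bp of a start in either list, 2393 (93%, 92 to 94%) had it in both. Another 127 had it in young TSA alone and 52 in old vehicle alone.

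Within the shared regions the tag numbers varied together, with a Spearman correlation of 0.93 over 4455 regions, which share 2 libraries and range widely in width. The median log2 ratio of young TSA over old vehicle tags was 0.00, so centring on the median changed nothing. The ratios had an SD of 0.48 on the log2 scale, against 0.18 from counting error alone, and the middle 50% ran from −0.30 to 0.26. In 81.8% of shared regions the lists were within 1.5-fold. The spread was narrowest at start sites (SD 0.41, 2710 regions) and wider inside genes (0.57, 1263 regions) and outside them (0.52, 482 regions).

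**Figure D1:**
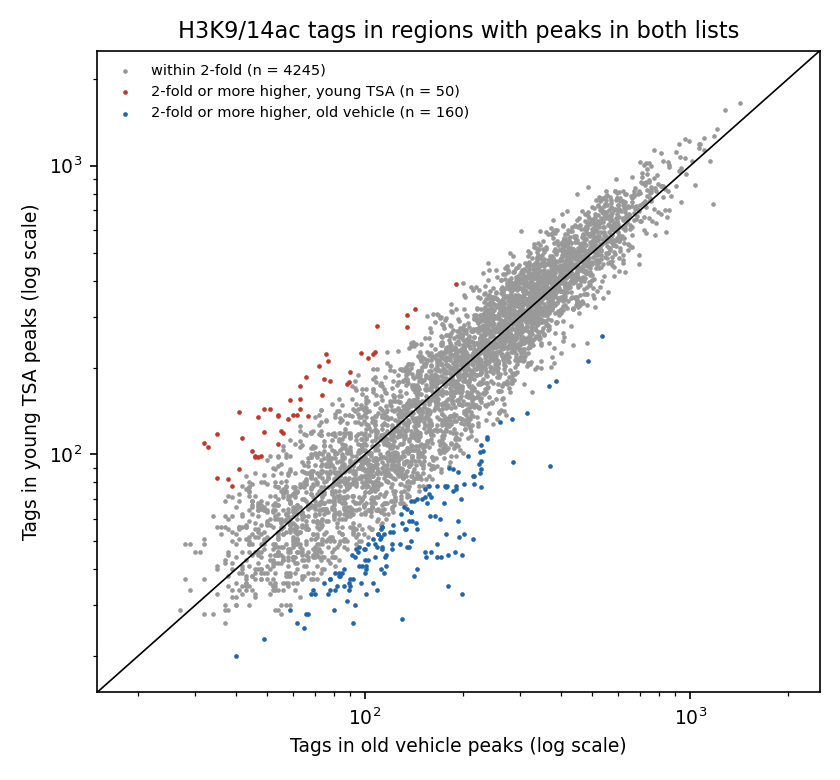
Tags in old vehicle peaks (x axis, log scale) against tags in young TSA peaks (y axis, log scale) for the 4455 regions with peaks in both lists, 1 point a region, with the line of equal tags. The cloud follows the line, with 50 regions at least 2-fold higher in young TSA (red) and 160 in old vehicle (blue), most of them at low tag numbers.

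The regions with most tags over the pair were nearly level in it. The leading region, inside Tsc22d2, which encodes a TSC22-domain protein, held 1646 tags in young TSA and 1425 in old vehicle. The start of Itpkb, an inositol phosphate kinase gene, followed with 1563 and 1277. At Jun, which encodes a subunit of the AP-1 transcription factor, the start region held 1336 and 1212 tags. That region ends inside the Jun promoter window, and all young TSA peaks over the window held 1843 tags, against 1212 in old vehicle. Each of these window sums takes whole peaks that touch the window, so peak borders shape them too. The shared start of Lrrc41 and Uqcrh (a subunit of the respiratory complex that reduces cytochrome c) held 1265 and 1184, that of the Notch ligand gene Jag1 1246 and 1104, and that of Wwtr1, which encodes the Hippo pathway effector TAZ, 1193 and 1067. All 6 were higher in young TSA, by 1.07- to 1.22-fold. The old TSA peaks held 711 to 840 tags in the same regions before any scaling.

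The pair was then set against the other H3K9/14ac libraries over 1709 regions that have a peak in all 4 lists. By the spread of tag ratios, young TSA and old vehicle were the closest of the 6 possible pairs, with an SD of 0.42 (log2), against 0.46 for old vehicle and old TSA, 0.47 for the TSA pair, 0.48 for the young pair, 0.49 for young vehicle and old TSA, and 0.53 for the vehicle pair. The order at the top was the same at start sites (0.37 against 0.43 or more for the other 5 pairs) and on chromosomes 1 and 2 apart, while away from start sites the pair and the old pair were level (both 0.53). Ranks of tags did not set the pair apart (Spearman 0.91, with 0.91 for the young pair and 0.88 to 0.90 for the others), and peak widths correlated at 0.86 in it, against 0.77 to 0.84.

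Other measures gave another order. Per kb of peak, the SD of the pair was 0.28, the fourth of the 6; the vehicle pair had the smallest (0.21), then young vehicle and old TSA (0.22) and the old pair (0.24). Of the bases in either list of a pair, 63.2% were covered by both young TSA and old vehicle, below the 67.1% of young vehicle and old TSA, and the other 4 pairs had 60.3 to 62.3%. H3K27ac, the other acetylation mark measured in the same conditions, put the pair at the opposite end: over 3706 regions its tag ratios had an SD of 0.58, the widest of 6 (0.39 to 0.54 for the others). In H3K27ac it was also the widest pair per kb (0.28).

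**Figure D2:**
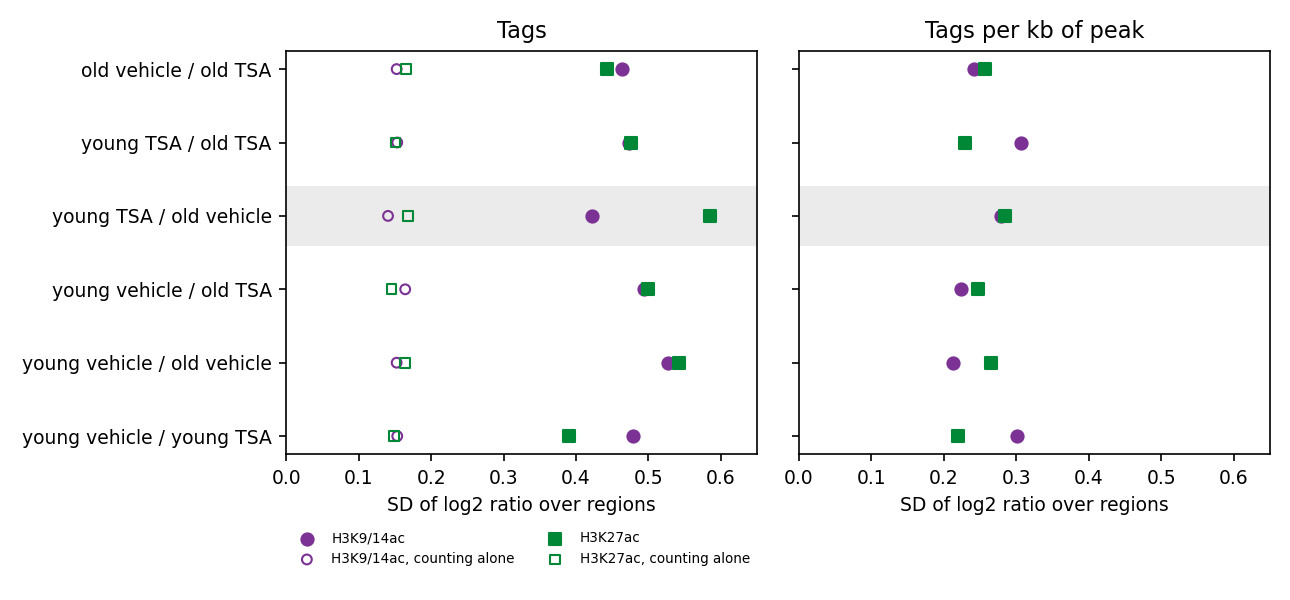
SD of the log2 ratio between the libraries of each of the 6 pairs, over 1709 regions for H3K9/14ac (circles) and 3706 for H3K27ac (squares), from tags (left) and from tags per kb of peak (right); open symbols give the SD that counting alone would leave. Young TSA and old vehicle (grey band) have the smallest H3K9/14ac value on the left (0.42), the largest H3K27ac value (0.58), and no such place for H3K9/14ac on the right (0.28).

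Regions that the pair held and the other libraries lacked were sought in the stretch of all 4 lists. Of 3671 regions there, 1709 were in all 4 lists, and 195 (5.31%) had a peak in young TSA and old vehicle alone. The other pairs held 29 to 68 regions of their own, young vehicle and old TSA the fewest. The 195 regions were mostly away from start sites, since 34 (17.4%, 12.4 to 23.5%) touched one, against 73.1% of the regions in all 4 lists. Regions that only another pair held were mostly away from start sites too, with 18.2 to 39.7% touching one. The 195 regions had a median of 142 tags, a sum over 2 libraries, against 1013 over 4 for regions in all lists. For the other pairs' own regions the median was 105 to 130.5 tags. When each list was cut to its 2474 peaks with most tags, a check chosen after seeing the data, the pair held 85 regions of its own, still the most, and the other pairs 25 to 63.

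**Figure D3:**
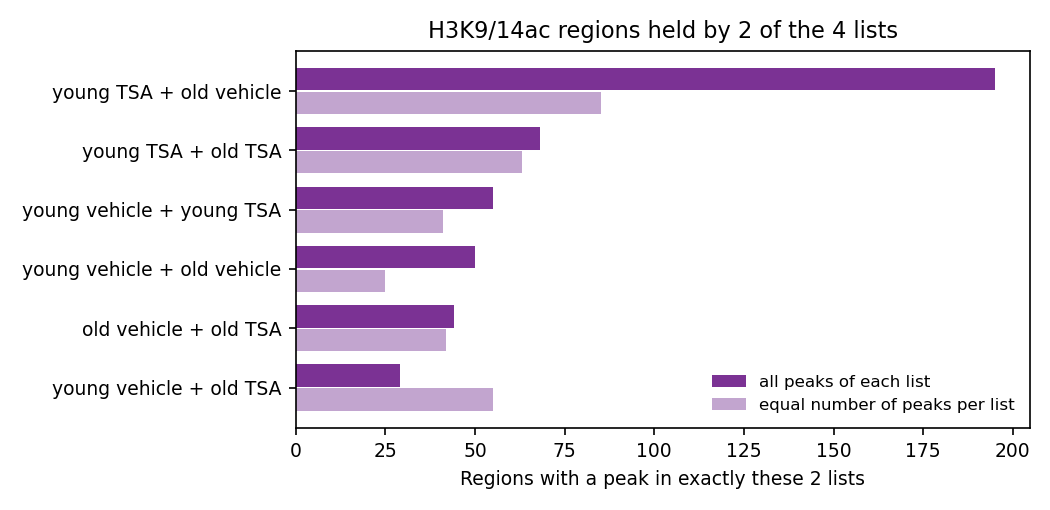
Number of H3K9/14ac regions (x axis) with a peak in exactly 2 of the 4 lists, for each pair of lists (y axis), with all peaks (dark) and with the 2474 strongest peaks of each list (light). Young TSA and old vehicle lead with 195 and 85 regions; young vehicle and old TSA go from 29 to 55.

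The 195 regions lay within 1000 bp of 130 genes, at most 5 of them at a single gene (Tns1). Those with most tags are given here, chosen after their values were seen. Rxra, which encodes the retinoid X receptor alpha, a partner of many nuclear receptors, had the region with most tags (chr2:27681535-27683429; 150 tags in young TSA, 268 in old vehicle, no peak in young vehicle or old TSA). Tns1, which encodes the focal adhesion protein tensin 1, had the next (chr1:73998234-73999830; 204 and 201). After it came the start of Dab2ip, a gene for a Ras GTPase-activating protein (135 and 221). Regions at Alx4, a homeobox gene of mesenchyme (137 and 205 tags), at the start of Adamtsl2, which encodes an extracellular matrix glycoprotein (114 and 208), and inside Mapk8ip1, a scaffold gene of JNK signalling (183 and 135), followed. The start of Igfbp5, which encodes a binding protein of insulin-like growth factors, held 145 and 164. A region inside Notch1, a receptor gene, held 134 and 153 tags. H3K27ac peaks of the same conditions covered the Tns1 region (382 tags in young TSA and 332 in old vehicle), and neither condition had one over the Rxra, Dab2ip, Alx4, Adamtsl2, Mapk8ip1 or Notch1 regions. At the Igfbp5 region young TSA had H3K27ac tags (133) and old vehicle had none.

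Summed over whole genes, the pair lay apart from the other libraries more often than libraries grouped by age or by treatment did. Tags in peaks over each gene and 10000 bp on each side were scaled to the median of the regions in all 4 lists (factors of 1.32 for young vehicle, 1.03 for old vehicle and 1.39 for old TSA, with young TSA at 1). Of 1834 genes with 100 tags or more over the 4 lists, 474 (25.8%) had both libraries of the pair above both others and 290 (15.8%) had both below. Grouping by age set apart 566 genes (30.9%) and grouping by treatment 493 (26.9%), against 764 (41.7%) for the pair. Ties aside, every gene falls in 1 of these groupings, so their shares compete and an even split would make them equal. Over the 1680 of these genes with tags in all 4 lists the pair was above in 414 (24.6%) and below in 283 (16.8%), 41.5% in all. Over single regions with peaks in all 4 lists the shares were closer to an even split. The pair had 316 of 1709 above (18.5%) and 303 below (17.7%), or 36.2%, against 33.7% by age and 30.0% by treatment.

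Gaps of 1.5-fold or more between the pair and the others were found at 58 of the 1834 genes on the high side (3.16%) and 22 on the low side (1.20%). Over the 1680 genes with tags in all 4 lists they were found at 20 (1.19%) and 16 (0.952%), and over the 1709 regions with peaks in all 4 lists at 11 (0.644%) and 23 (1.35%), so the lean to the high side did not hold there. The rest of the 58 genes have no peak in young vehicle, in old TSA or in both. The genes below were named from the 58 and 22 after their values were seen. Rxra had 2140 scaled tags in young TSA and 3202 in old vehicle, against 895 in young vehicle and 1352 in old TSA. Gli2, which encodes a transcription factor of Hedgehog signalling, had 619 and 808 in the pair, against 203 and 386. At both genes the pair stood above the others. At Gata3, a zinc finger transcription factor gene, the pair had 448 and 162, against 96.2 and 57.2. Adamtsl2 (191 in young TSA and 290 in old vehicle) and Alx4 (137 and 211) had no tags in the others, and Igfbp5 had 270 and 169 against none in young vehicle and 66.9 in old TSA. Dpp4, a surface peptidase gene expressed in progenitors of connective tissue, had 85 and 130 against none.

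The low side held collagen and growth factor genes. Col3a1, which encodes a fibrillar collagen of scar tissue, had 49 scaled tags in young TSA and 41.2 in old vehicle, against 359 in young vehicle and 298 in old TSA. Col5a2, another fibrillar collagen gene, had 198 and 198 in the pair, against 489 and 328. At both collagen genes the pair lay below each of the other libraries. Fgf7, a growth factor gene of mesenchyme, had 219 and 101, against 512 and 514. Calcrl, which encodes a receptor of adrenomedullin and calcitonin gene-related peptide, had 143 and 110, against 465 and 552, and Tfpi, next to it on chromosome 2 and partly in the same window, 104 and 110, against 406 and 325. Summed over the 35 matrix genes in the stretch, tags were 18828 in young TSA and 18585 in old vehicle (both unscaled), against 15300 in old TSA after scaling.

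**Figure D4:**
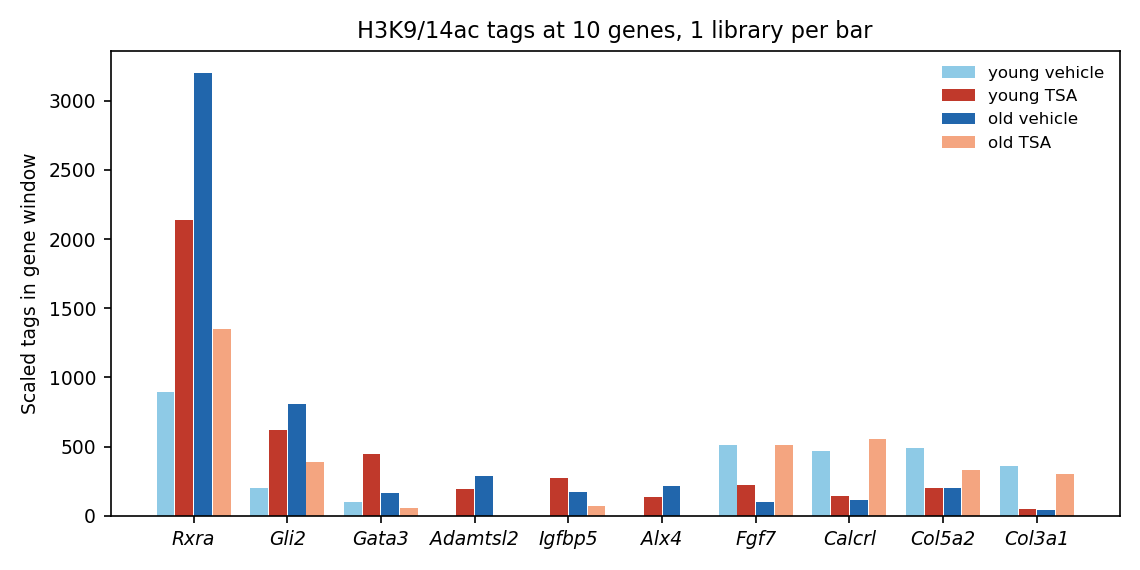
Scaled H3K9/14ac tags (y axis) in the windows of 10 genes (x axis), with 1 bar for each library. At Rxra, Gli2, Gata3, Adamtsl2, Igfbp5 and Alx4 young TSA and old vehicle are above the other libraries, and at Fgf7, Calcrl, Col5a2 and Col3a1 both are below them.

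Inside the pair, 2-fold differences at shared regions leaned to old vehicle. Regions that a single list held leaned the other way (1637 in young TSA against 1009 in old vehicle). Of the 4455 shared regions, 50 (1.12%) were at least 2-fold higher in young TSA and 160 (3.59%) at least 2-fold higher in old vehicle. Among 3333 regions with 200 tags or more over the pair these numbers were 24 and 67. Of the 50, 22 lay inside genes (44%, 30 to 58.7%), and of the 160, 94 did (58.8%, 50.7 to 66.5%), against 28.4% of all shared regions. Every one of the 210 was wider in the library where it had more tags. None was 2-fold apart per kb of peak once those ratios were centred on their own median. Over all shared regions the tag ratio followed the width ratio (Spearman 0.72 over 4455 regions, where a wider peak holds more tags by its making).

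Among regions with 200 tags or more over the pair, the largest ratio towards young TSA lay inside Gnas, which encodes the stimulatory G protein alpha subunit, with 223 tags in a peak of 971 bp in young TSA and 76 in 416 bp in old vehicle (2.93-fold; 1.55 on the log2 scale with a counting SE of 0.19). A region at the start of Pou2f1, an octamer-binding factor gene, held 203 and 72 tags (2.82-fold), and the S100a10 region, at a gene for an annexin partner, 185 and 66 (2.80-fold). At the start of Tal1, a transcription factor gene of blood and endothelium, the values were 210 and 77 (2.73-fold). Regions inside Zdhhc18 (172 and 63) and Wwtr1 (154 and 59) completed the 6 highest of that size. Regions with fewer tags reached 3.44-fold, at Cfap45 (110 and 32). Per kb and before centring, young TSA was above old vehicle at Gnas (230 against 183 tags) and Tal1 (186 against 162). It was below at the other 4. At the median shared region, old vehicle was 1.14-fold higher per kb. Set against that median, Pou2f1 (213 against 237) and Wwtr1 (188 against 200) were also higher in young TSA.

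Towards old vehicle the largest ratio was inside Ptpn1, a protein tyrosine phosphatase gene, with 198 tags over 1209 bp against 33 over 207 bp in young TSA (6-fold; −2.58 on the log2 scale with a counting SE of 0.27). Per kb the Ptpn1 region was level, with 159 tags in young TSA and 164 in old vehicle. Regions inside Phc2, a Polycomb gene (180 tags in old vehicle and 35 in young TSA), Tns1 (198 and 45), Ampd2 (214 and 51) and Ahdc1 (189 and 46) were 4.11- to 5.14-fold apart. A region inside Gsn, the gene of the actin-severing protein gelsolin, was 4.08-fold higher in old vehicle, at 371 tags against 91 (−2.03 on the log2 scale, counting SE 0.17). Per kb and before centring, young TSA was above old vehicle at Phc2 (173 against 134 tags), Tns1 (164 against 143) and Ampd2 (144 against 139). These regions thus had more tags in old vehicle through wider peaks, not through more tags per kb. Young TSA was below old vehicle per kb at Ahdc1 (135 against 168) and Gsn (149 against 170). At the Gsn region H3K27ac was also higher in old vehicle, with 361 tags there and 179 in young TSA.

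Regions in 1 list were small. Young TSA had 1637 of its own (23.1% of the 7101), with a median of 46 tags and 321 bp, and old vehicle 1009 (14.2%), with 59 tags and 317 bp. They held 7.23% of the young TSA tags and 5.88% of the old vehicle tags, and 20.0% and 16.2% of them touched a start site, against 60.8% of shared regions. The strongest young TSA region lay over Aplnr, the apelin receptor gene of endothelium (255 tags), followed by Sapcd2 (241), Tcf15 (216), a helix-loop-helix factor gene, and Rnf220 (205). Young vehicle had 231 tags in the Aplnr region and old TSA had none there. The strongest old vehicle regions were at Ackr3, a scavenging chemokine receptor gene (218), at 2 sites in Rxra (190 and 189), and near Fcrl5 (184). Neither Rxra region had a peak in young vehicle or old TSA.

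Over whole genes, 3283 of 5157 in the stretch had tags in both lists and at least 50 in all, with a median log2 ratio of 0.05. Of these, 34 (1.04%) were at least 2-fold higher in young TSA and 61 (1.86%) at least 2-fold higher in old vehicle. Another 165 genes had tags in young TSA alone and 84 in old vehicle alone. Those on the young TSA side included Chd7, which encodes a chromatin remodeller (259 and 51 tags), Tie1, an endothelial receptor gene (158 and 38), Heyl, a Notch target (136 and 39), Tinagl1, a matrix protein gene (734 and 220), F11r, a junctional adhesion gene (532 and 172), and Aplnr (588 and 214). On the old vehicle side were Kcnab1, a potassium channel subunit gene (48 tags in young TSA, 250 in old vehicle), Serping1, which encodes the C1 inhibitor of complement (73 and 370), Ccn5, a matricellular gene of Wnt signalling (60 and 230), Myoc (78 and 297) and Gsn (485 and 1401). Among genes with tags in 1 list alone, Zbp1 (201), Esrrg (185) and St8sia4 (155) led in young TSA, and Fmn2 (243), Pamr1 (231) and Nppc (214) in old vehicle.

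The gene lists are described by counts, beside the 55.0% of all 3283 genes that were higher in young TSA and their median of 0.05 (log2). Of the 9 FAP identity genes, none was 2-fold higher in young TSA and 2 were 2-fold higher in old vehicle, Gsn and Hsd11b1 (116 and 258 tags), the latter encoding the enzyme that activates glucocorticoids; the list's median was −0.08. Of 29 matrix genes none was 2-fold apart (median 0.04), and the same was true of 17 adipogenesis genes (−0.02), 13 senescence genes (−0.09), 32 cell cycle genes (0.15), 46 housekeeping genes (0.10), 13 macrophage genes (0.00) and 10 lymphocyte genes (−0.18). Of 30 genes for enzymes and readers of acetylation, which include the deacetylases that TSA blocks, none was 2-fold apart and 22 were above 0 (median 0.15), with Hdac1 at 417 and 308 tags and Hdac4 at 458 and 552.

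Immediate early genes, which respond within minutes to stimuli and to tissue dissociation, were above 0 in 13 of 15 cases, with a median of 0.20 and none 2-fold apart. Nr4a3, an orphan nuclear receptor gene, had 1417 tags in young TSA and 1006 in old vehicle, Btg2, an antiproliferative gene, 770 and 547, and Snai1, which encodes a repressor of epithelial genes, went the other way with 914 and 1070. The 5 measured Hox genes were all above 0 (median 0.67), led by Hoxd3 (852 and 428); they neighbour each other on chromosome 2 and share windows, so they are not separate observations. At the far end of the same cluster, Hoxd12, Hoxd13 and Evx2 shared a peak of 70 tags in old vehicle alone.

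Endothelial genes were above 0 in 9 of 12 cases (median 0.21), with Tie1 2-fold higher in young TSA and Emcn, an endothelial sialomucin gene, 2-fold higher in old vehicle (39 and 81 tags). The list's summed tags were 8653 in young TSA and 7210 in old vehicle, and 5850 (scaled) in old TSA. Sele and Ackr1, markers of venules, had no tags in either. Notch1, which is not in the list, had 1511 and 841. The part of endothelial cells in the values at Tie1, Tal1 and Aplnr was not tested. In a bulk library, fewer cells of a type and less signal per cell cannot be told apart.

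Among the remaining lists, 16 interferon response genes had a median of −0.18. Aim2 (36 and 97 tags) and the neighbours Sp100 and Sp140 (a shared window, 37 and 84) were 2-fold higher in old vehicle. The Aim2 tags came from a peak at the start of the neighbouring gene Cadm3. Another 5 genes of the list, Zbp1 among them, had tags in young TSA alone. Of 23 Wnt, Notch and Hedgehog genes (median −0.07), Heyl was 2-fold higher in young TSA and Ccn5 in old vehicle. Of 23 TGF-beta and BMP genes (0.11), the receptor gene Bmpr1b was 2-fold higher in old vehicle (116 and 252). Muscle fibre genes (11, median 0.05) included Chrna1, a subunit of the acetylcholine receptor (98 and 196), and Myl9, a myosin light chain gene also listed for smooth muscle (111 and 250), both 2-fold higher in old vehicle. The 7 pericyte and smooth muscle genes had a median of −0.09, the 7 muscle stem cell genes 0.27 and the 10 neural genes −0.05, with Kcna2 (68 and 175) 2-fold higher in old vehicle. Schwann cell genes were measured in 1 case and tenocyte genes in none.

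**Figure D5:**
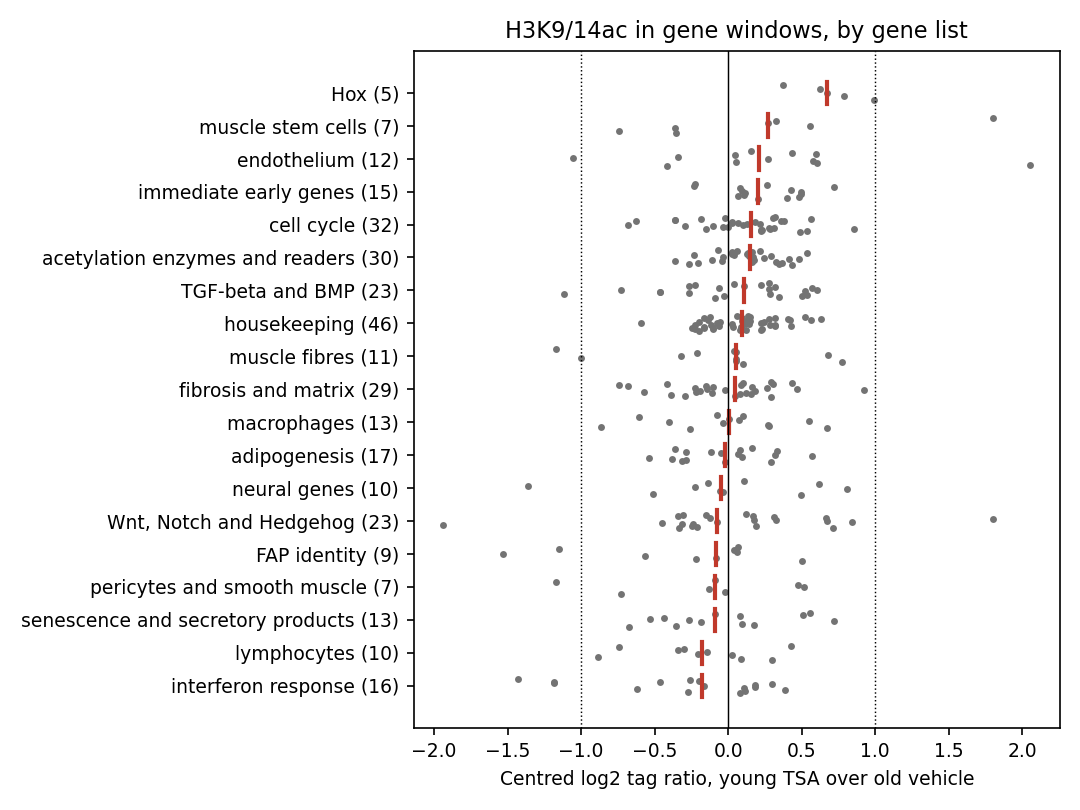
Centred log2 ratio of H3K9/14ac tags, young TSA over old vehicle (x axis), for the measured genes of each list with 5 or more (y axis, number in brackets); grey points are genes, red bars list medians, dotted lines the 2-fold limits. Medians run from −0.18 (interferon response, lymphocytes) to 0.67 (Hox), and few genes pass the 2-fold lines.

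H3K27ac in the same conditions was read at the shared H3K9/14ac regions. Of the 4455, 3156 (70.8%) had an H3K27ac peak in both young TSA and old vehicle, where H3K27ac tags were higher in young TSA by a median of 0.52 (log2), a shift that H3K9/14ac did not have. Tags are not normalised between libraries. In the stretch that all 4 H3K27ac lists cover, peaks held 1376021 tags in young TSA and 952786 in old vehicle. The part of this difference in the shift was not tested. After centring, the ratios of the marks correlated weakly (Spearman 0.28 over 3156 regions of 4 libraries). Of 80 regions with H3K9/14ac 2-fold higher in old vehicle, 71 had an H3K27ac ratio below its median. Of 37 regions 2-fold higher in young TSA, 15 were above it, and their median after centring was −0.04 (log2). The median over all shared H3K27ac regions was lower (0.46), and more of the 37 lay above that one, so this count depends on the centre. Among regions in 1 H3K9/14ac list, 11.4% of those in young TSA had an H3K27ac peak in young TSA alone and 1.95% in old vehicle alone; of those in old vehicle, 9.02% had one in young TSA alone and 5.25% in old vehicle alone. At single genes the marks leaned together at Aplnr (1710 and 507 H3K27ac tags), F11r (1360 and 424), Ccn5 (48 and 267) and Myoc (316 and 843).

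GC content was weakly related to the ratio inside the pair. Over 2310 shared regions that cover a promoter window, the Spearman correlation of the window's G and C share with the tag ratio was 0.15, and the median log2 ratio went from −0.01 in the 25% of regions with least G and C to 0.16 in the 25% with most. Its part in the values above was not tested.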

How the data were processed

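H3K9/14ac and H3K27ac ChIP-seq of FAPs was deposited as 1 peak list per library. The Total Tags column is a count of tags per peak that the authors' peak finder wrote, not normalised between libraries, per the file headers. The submitters' processing notes name Bowtie 0.12.7, MACS2 and HOMER with GRCm38, without saying which step each did. The files end inside a line, so comparisons use the stretch both lists cover; the 4 input samples were not used here. All columns used were matched to a group, and each peak list is 1 sample.

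Peaks overlapping by 1 bp or more were merged, tags summed per list, and log2 ratios centred on their median over shared regions (Python 3.11.15, numpy 2.4.6, scipy 1.17.1). A region or gene was called at 2-fold. Gene windows were the gene and 10000 bp on each side, with tags shared out by overlap and 50 tags needed over both lists. A start site window was 1000 bp to each side. Annotation was RefSeq on GRCm38.p6; 836 of 848 symbols in 21 gene lists matched. Standard errors cover counting only. Steps were checked on simulated peaks.

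Named regions were the 6 highest, 6 lowest and 6 strongest shared regions (200 tags or more for the ratios) and the 4 strongest in each list alone; named genes were list members with the highest or lowest ratio or most tags, and the strongest genes in 1 list alone. Genes named elsewhere were chosen after their values were seen. The members and gene lists were chosen with earlier results of these data known.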

Additional observations from a re-analysis of the deposited data

How the results depend on the processing

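Of 97 values recomputed under 17 settings, 75 stayed within the margin used (the 95% interval for shared peaks, 1.5 times for other percentages and spreads, 0.1 for medians and correlations) and 22 moved. Per kb of peak, ratios were centred on their own median. Counted so, 0 regions (0% of shared regions, against 1.12%) were 2-fold higher in young TSA. In old vehicle it was 6 regions (0.135%, against 3.59%). None of the 210 regions called on tags was among these 6, and all 210 were wider where they had more tags. The upper 50% of each list by tags gave shared shares of 86.4% of young TSA and 92.5% of old vehicle peaks, 0.523% (14 regions) and 0.673% (18) of regions 2-fold higher in young TSA and old vehicle, and 12.7% (424) and 6.85% (228) of regions in 1 list. Equal list lengths gave 75.4% of young TSA peaks shared. Joining peaks closer than 1000 bp gave 77.1% of them shared and 1.74% of regions 2-fold higher in young TSA. An overlap of 50% of the narrower peak gave 82.3% of old vehicle peaks shared. On single chromosomes, shared young TSA peaks were 72.5% on chromosome 2 and 76.0% on chromosome 3, shared old vehicle peaks 81.8% on chromosome 1 and 85.2% on chromosome 4, regions 2-fold higher in young TSA 1.71% on chromosome 2 and 0.746% on chromosome 4, and genes 2-fold higher in young TSA 0.306% on chromosome 3 and 1.74% on chromosome 4. The region ratios were here centred on each chromosome's own median. With the common median, the region values were 1.5% on chromosome 2 and 0.839% on chromosome 4, both within the margin. Equal lengths of all 4 lists, a setting chosen after seeing the data, gave 3% of regions (85) in young TSA and old vehicle alone and 1.94% (55) in young vehicle and old TSA alone. The upper 50% and the equal lengths leave fewer peaks by construction; elsewhere the cause was not tested. No paired analysis was possible because each condition has 1 library. Tags outside a list's own peaks are not in the files, so a region without a peak has no tag count, and the depth of the libraries is not given.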
